A study of Marmota monax with 203 samples.

Results

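The 23 liver biopsies described here were taken at week 0 of the study, 6 hours after the first dose of 20 µg recombinant woodchuck interferon-alpha (wIFN-α) or of placebo. They were chosen by their labels, as all sequencing runs of the first treatment week (week 1 in the labels, week 0 in the study), with the runs of an animal summed and with the wIFN-α animal M1004 set aside, which the study excluded from its analyses. They are 23 of the 164 biopsies of the series and 28 of its 203 sequencing runs, from 11 wIFN-α animals (5 males and 6 females) and 12 placebo animals (6 males and 6 females). All were adult woodchucks (Marmota monax) born in captivity, infected with woodchuck hepatitis virus (WHV) as newborns, and chronic carriers of it when dosing began. Both groups were injected under the skin, the placebo animals with the vehicle alone. The comparison asks how the transcriptome of a chronically infected liver stands a few hours after a single exposure to interferon, before the repeated doses that followed. It holds no uninfected animals and no other time after the dose, and each group value comes from separate animals.

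Type I interferons bind a receptor of the chains IFNAR1 and IFNAR2, whose kinases JAK1 and TYK2 phosphorylate transcription factors of the STAT family. With IRF9 these turn on interferon-stimulated genes (ISGs), among them antiviral effectors, sensors of foreign nucleic acids, parts of the antigen presentation machinery and inhibitors of the pathway itself. Hepatocytes and the resident immune cells of the liver carry this receptor, and IFN-α is in clinical use against chronic hepatitis B, the human counterpart of WHV infection.

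Between 12962032 and 62397372 reads per biopsy lay on genes, with a median of 31777722 in the wIFN-α group and 24216892 in the placebo group. Levels are given as CPM, counts scaled to 1000000 reads on genes and adjusted by TMM, edgeR's scaling between libraries. Levels are not corrected for gene length, so that a level is compared between animals and not between genes. The label liver was checked against 15 hepatocyte genes, whose summed level was 60815 to 136061 CPM in wIFN-α animals and 72482 to 126521 CPM in placebo animals, with none of the genes called by edgeR, DESeq2 or limma-voom or at an unadjusted p under 0.05. Some biopsies also held RNA of other tissues. Skin genes exceeded a sum of 1000 CPM in the placebo animals M1008, F1021 and M1009. Skeletal muscle genes exceeded 10000 CPM in the wIFN-α animals F1023 and M1006 and in the placebo animals F1021, F1016 and M1010. The ribosomal RNA entries RN18S1 and RN28S1 exceeded 30000 CPM in the wIFN-α animals F1013 and F1020. Leaving out these 9 biopsies, an alternative chosen after the data were seen, left 7 animals in each group. In pieces of whole tissue, fewer cells of a type and less RNA per cell cannot be told apart.

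**Figure D1:**
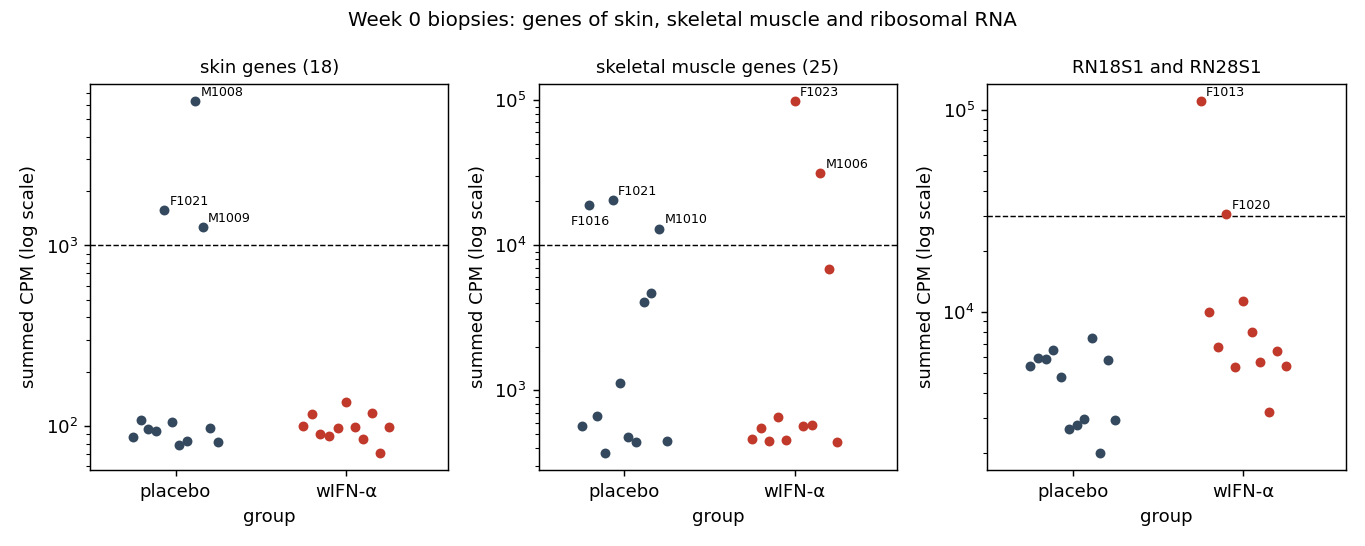
Summed CPM (log scale) of 18 skin genes, 25 skeletal muscle genes and the entries RN18S1 and RN28S1 in each week 0 biopsy, with a point for each of 12 placebo and 11 wIFN-α animals and a dashed line at the level above which a biopsy was set apart. Skin genes lie above the line in 3 placebo animals, muscle genes in 3 placebo and 2 wIFN-α animals, and ribosomal RNA in 2 wIFN-α animals.

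Wide parts of the liver transcriptome differed at 6 hours. A gene was called when edgeR's quasi-likelihood test gave a Benjamini-Hochberg adjusted p under 0.05 and the fold change exceeded 1.5. Of 14700 genes tested, 2719 (18.5%) were called, 1521 (10.3%) higher and 1198 (8.15%) lower in wIFN-α animals, around a median log2 fold change of -0.01 over all genes tested. Every wIFN-α animal lay above every placebo animal for 614 genes (4.18%) and below every placebo animal for 99 genes (0.673%). Rose and fell are used here of the difference from placebo animals at week 0, not of a change over time. The upward changes were also the larger ones. Counting only called genes that averaged 1 CPM or more, 202 rose by more than 2 on the log2 scale, 38 of them by more than 4, while 39 fell by more than 2. Taken as the change from each animal's own biopsy at week -3, with the animal as a replicate block, 1297 genes were called higher and 741 lower, and 1537 and 1154 without F1018 and F1016, whose biopsies at week -3 held mostly muscle RNA. Without the 9 biopsies set apart 1578 were called higher and 1045 lower, and 2153 of the 2719 genes (79.2%) kept their call and direction. With the block 1773 genes (65.2%) kept them, 1161 of the 1521 higher and 612 of the 1198 lower.

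Known antiviral ISGs stood at the head of the ranking by fold change. IFIT3, a protein that sequesters viral RNA, stood at 560.4 to 1637 (median 1273) CPM in wIFN-α animals and 5.75 to 29.2 (median 10.6) CPM in the placebo group, which made a log2 fold change of 6.55 ± 0.31 (SE), the highest among genes with reads in every placebo animal (edgeR adjusted p = 2.1e-14). RSAD2, which encodes the antiviral enzyme viperin, rose from 15.4 to 32.5 (median 20.5) CPM to 780.2 to 1989 (median 1231) CPM, by 5.89 ± 0.20 (edgeR adjusted p = 2.58e-16). OASL, a member of the oligoadenylate synthetase family, reached 531 to 1102 (median 768) CPM against 2.36 to 37.3 (median 6.34) CPM (log2 fold change 6.16 ± 0.45). For all 3 genes the lowest wIFN-α animal lay far above the highest placebo animal. For OASL the placebo animals F1021, M1010 and M1008 were the highest, at 37.3, 25.7 and 14.8 CPM, all of them biopsies with genes of muscle or skin. F1016 and M1009, also placebo biopsies with such genes, were at 10.6 and 3.95 CPM. Without the biopsies set apart the log2 fold change of OASL was 7.23. The part of other tissues in these values was not tested.

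Other genes among the highest were of different kinds. TMPRSS2, a serine protease of the cell surface, rose from 0.103 to 1.41 (median 0.765) CPM to 9.296 to 165 (median 36.8) CPM, by 6.13 ± 0.50. The apolipoprotein L genes APOL1, APOL2 and APOL3, which lie in 1 family of similar sequence and may share reads, rose by 5.17, 5.46 and 5.40, with APOL2 at 40.4 to 88.7 (median 47.02) CPM against 0.172 to 4.23 (median 0.876) CPM. None of these wIFN-α values reached down into the placebo range. AQP8, a water channel, ANGPTL7, an angiopoietin-like protein, and the uncharacterized LOC100129473 also stood among the 15 highest, with log2 fold changes of 5.40 ± 0.51, 5.22 ± 0.60 and 5.35 ± 0.41. In placebo animals AQP8 was at most 0.146 CPM and ANGPTL7 at most 0.608 CPM.

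A few genes were near the detection floor of 3 counts in all 12 placebo animals. MX2, whose reads may be shared with the similar gene MX1, had 9 counts over the placebo group and 55 to 286 counts in each wIFN-α animal. Its pooled level was 207 times that of the placebo group (95% counting interval 109 to 453). OCM2, an oncomodulin gene of the calcium-binding parvalbumin family, had 2 counts over the placebo group and 19 to 51 counts per wIFN-α animal, a ratio of 215 (59.6 to 1777). APOL5 and MSX2P1, with 5 and 11 counts over the placebo group, had ratios of 82.9 (35.5 to 255) and 35.4 (19.8 to 70.9). Neither of these 2 genes was among the genes tested, so neither has a p-value or a call. The lowest wIFN-α animal had 1 count of APOL5 and 7 counts of MSX2P1, against at most 2 and 3 in a placebo animal. APOL5 overlapped between the groups, with a lowest wIFN-α level of 0.0354 CPM and a highest placebo level of 0.124 CPM. These intervals cover counting error only.

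**Figure D2:**
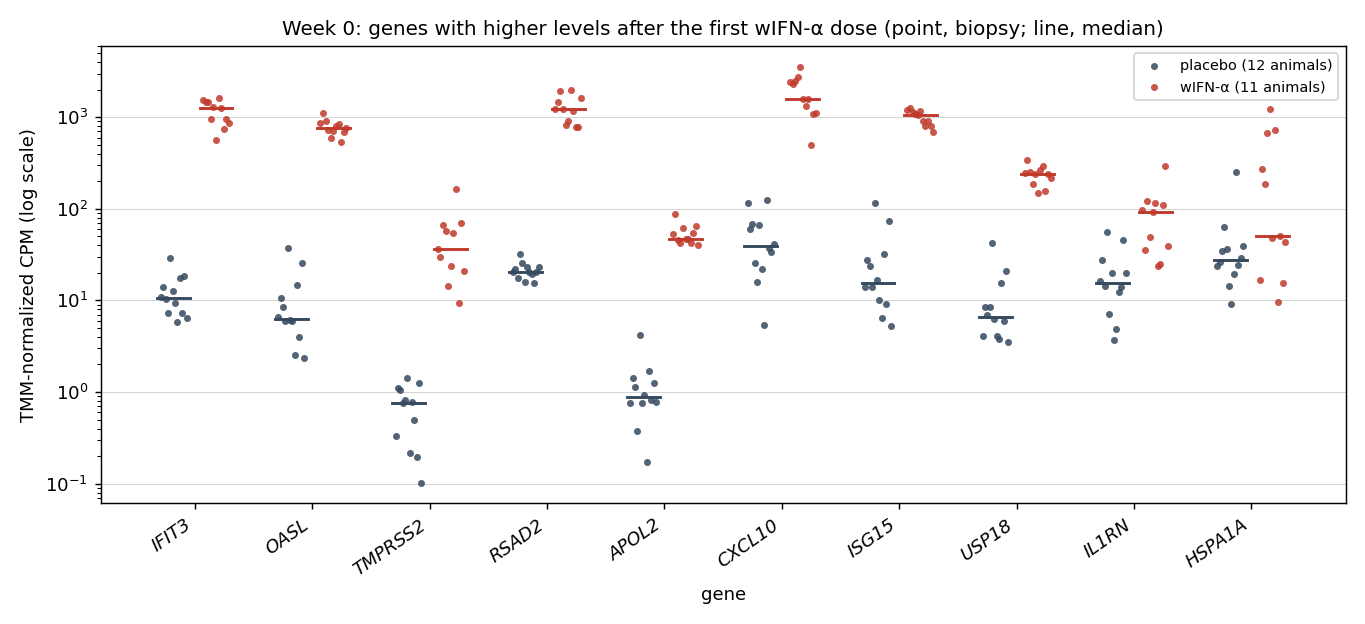
Level of each gene (TMM-normalized CPM, log scale) in each week 0 biopsy, with placebo animals (12) and wIFN-α animals (11) side by side and a line at each group's median. From IFIT3 to USP18 every wIFN-α point lies above every placebo point, while the points of IL1RN and HSPA1A overlap.

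The antiviral effector genes rose nearly as a whole. Of 31 tested genes of this list, 29 were called higher and none lower, with a median log2 fold change of 2.92, and 27 of them did not overlap between the groups. Over all genes tested 10.3% were called higher and 4.18% were higher without overlap. The summed level of the list was 10822 to 19781 CPM in wIFN-α animals and 1172 to 1812 CPM in placebo animals. The lowest sum among the wIFN-α animals belonged to M1006, one of the animals with muscle RNA. IFIT2, a relative of IFIT3, rose by 5.21 ± 0.23 to 1531 to 4535 (median 3763) CPM, and IFIT1, which may share reads with other genes of its family, by 4.65 ± 0.15 to 227 to 461 (median 404) CPM. The oligoadenylate synthetases OAS1, OAS2 and OAS3, which respond to double-stranded RNA, rose by 3.60, 3.93 and 4.31. Smaller rises were those of the RNA-binding protein ZC3HAV1 (1.15 ± 0.09), of the ubiquitin ligase TRIM25 (1.12 ± 0.10), of the cytidine deaminase APOBEC3F (0.90 ± 0.21, 0.85 with the block at adjusted p = 0.119) and of the nucleotide-degrading enzyme SAMHD1 (0.84 ± 0.12). The 2 tested members without a call were SLFN5 (0.54, below the fold change threshold) and APOBEC3H (0.13). In the biopsies 3 weeks before dosing the median of the list was -0.07, with no gene called.

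The ISG15 pathway, in which the ubiquitin-like protein ISG15 is attached to other proteins, rose in each of its measured steps. All 6 genes were called higher without overlap, and their median log2 fold change was 3.79. Over all genes tested 10.3% were called higher and 4.18% were higher without overlap. ISG15 stood at 698 to 1245 (median 1051) CPM in wIFN-α animals and 5.31 to 115 (median 15.4) CPM in placebo animals, a rise of 5.10 ± 0.48. Its highest placebo values, 115 CPM in F1021 and 73.7 CPM in M1010, came from biopsies with muscle RNA and still lay below the lowest wIFN-α animal. The part of muscle RNA in these values was not tested. The activating enzyme UBA7 rose by 3.85 ± 0.33, the conjugating enzyme UBE2L6 by 1.68 ± 0.15, and the ligases HERC5 and HERC6 by 3.07 ± 0.14 and 3.72 ± 0.19. USP18, the protease that removes ISG15 and also blocks the interferon receptor, rose from 3.496 to 41.9 (median 6.61) CPM to 149 to 344 (median 242) CPM, by 4.44 ± 0.40.

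Sensors of foreign RNA and DNA rose as a group as well, 15 of 17 tested with a median of 2.33. This was 88.2%, beside 10.3% called higher over all genes tested. IFIH1, which encodes the double-stranded RNA sensor MDA5, went from 9.74 to 17.5 (median 13.8) CPM to 176 to 366 (median 261) CPM (4.28 ± 0.15), and DDX58, which encodes RIG-I, from 36.3 to 60.2 (median 49.99) CPM to 262 to 1037 (median 418) CPM (3.34 ± 0.19). Neither gene had a wIFN-α animal within the placebo range. The endosomal receptor TLR3 rose by 4.69 ± 0.26, the DNA sensor ZBP1 by 3.39 ± 0.24, MB21D1, which encodes cGAS, by 3.29 ± 0.25, and DDX60 by 4.85 ± 0.42, with DDX60L (3.97) as a close paralog. Of the adaptor genes below these sensors, TICAM1 (1.11), MYD88 (0.73) and TMEM173, which encodes STING (1.38), were called higher. The adaptor MAVS, at -0.12, and the receptor TLR7, at 0.20, were not called (edgeR adjusted p = 0.275 and 0.677).

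Large GTPases and nuclear body proteins rose too. All 9 tested genes of the guanylate-binding protein list rose, with a median of 3.31 and 8 of them without overlap. Over all genes tested 10.3% were called higher and 4.18% were higher without overlap. GBP1 stood at 331 to 1093 (median 721) CPM against 14.8 to 80.8 (median 30.3) CPM (4.24 ± 0.27), and RNF213, a very large ubiquitin ligase, at 1311 to 2901 (median 2117) CPM against 138 to 293 (median 188) CPM (3.45 ± 0.16). Of 14 nuclear ISGs 12 rose (median 1.65), led by PML, the scaffold of nuclear bodies (3.30 ± 0.14), the repressor ETV7 (3.21 ± 0.21) and the transcription factor BATF2 (2.46 ± 0.28). Of 10 genes of the PARP family and its partners, which transfer ADP-ribose to proteins, 7 rose, among them PARP10 (3.61 ± 0.17), PARP14 (3.00 ± 0.15) and DTX3L (2.54 ± 0.15).

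**Figure D3:**
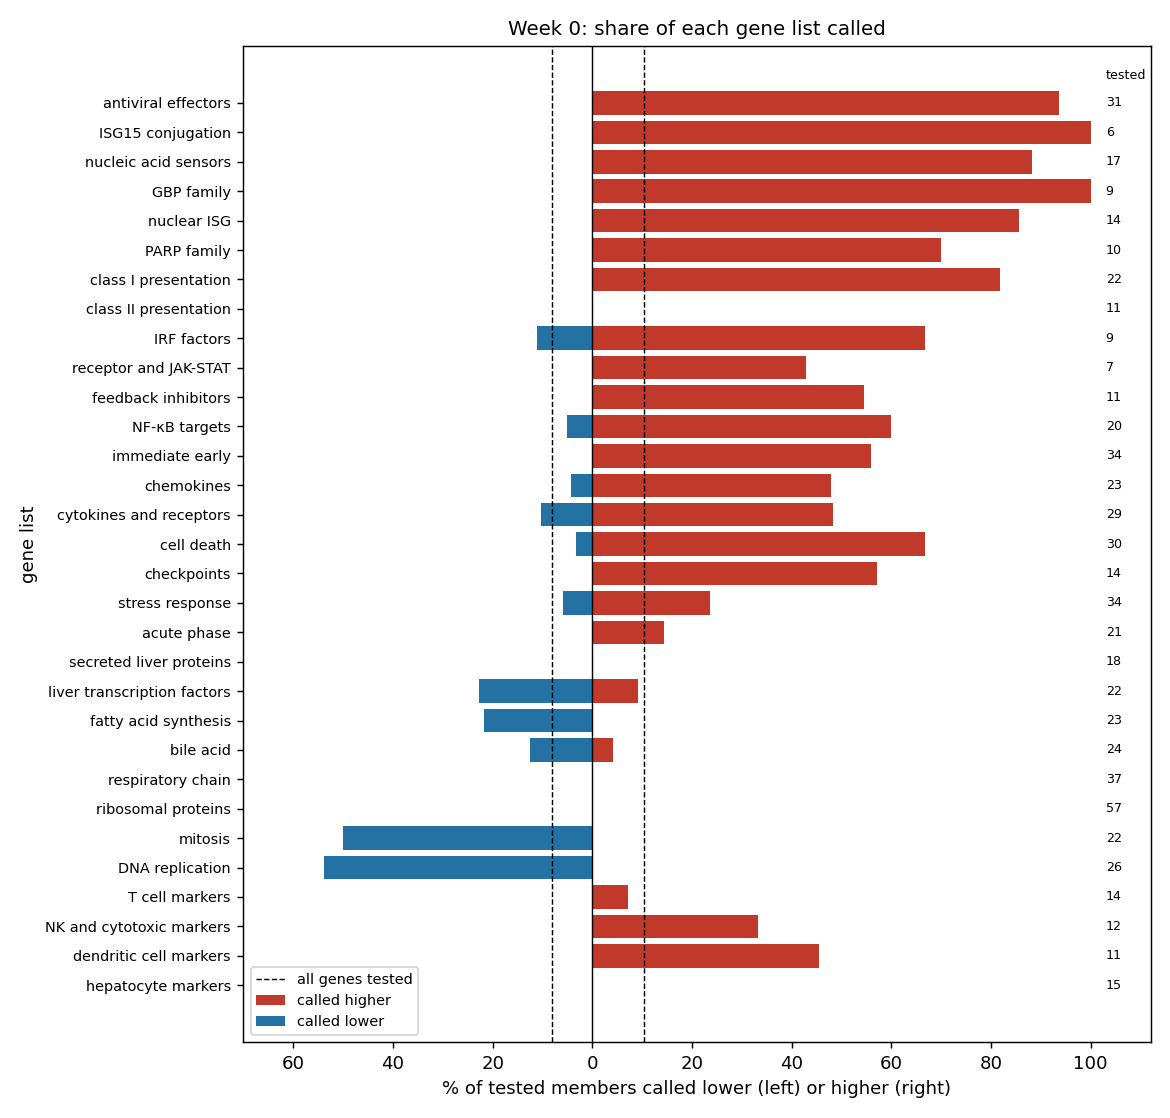
Share of the tested members of each gene list called lower (left, blue) or higher (right, red) in 11 wIFN-α against 12 placebo animals at week 0, with the number of genes tested at the right and dashed lines at the shares over all genes tested (8.15% and 10.3%). The antiviral, ISG15, sensor, GBP, nuclear, PARP and class I lists reach 70% or more to the right, mitosis and DNA replication lie to the left at 50% or more, and ribosomal, respiratory chain, secreted liver protein and hepatocyte lists hold no called gene.

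Components of the receptor pathway itself responded unevenly. IFNAR2 rose from 15.8 to 30.4 (median 23.98) CPM to 32.6 to 64.9 (median 43.5) CPM (0.95 ± 0.13) and IRF9 from 33.8 to 55.2 (median 37.6) CPM to 62.1 to 84.99 (median 72.9) CPM (0.88 ± 0.08). Both were free of overlap. Not called were STAT2 (0.11 ± 0.21, edgeR adjusted p = 0.719), JAK1 (-0.0022), TYK2 (-0.39, below the fold change threshold at adjusted p = 0.0136) and IFNAR1 (-0.41, likewise at adjusted p = 0.0142). Among inhibitors of the pathway 6 of 11 rose (54.5%, beside 10.3% higher over all genes tested), with a median of 0.65. After USP18 these were SOCS1, which binds the kinases (1.46 ± 0.14, no overlap), the phosphatases PTPN1 (1.51 ± 0.17) and PTPN2 (1.09 ± 0.13), SOCS3 (1.30 ± 0.34) and PIAS1 (0.65 ± 0.09). SOCS3, which also curbs IL-6 signaling, was no longer called without the biopsies set apart (1.26, edgeR adjusted p = 0.0616).

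Most interferon regulatory factors rose, 6 of 9 genes, beside 10.3% called higher over all genes tested. IRF7, which amplifies interferon production, went from 21.7 to 109 (median 37.4) CPM to 328 to 647 (median 494) CPM (3.53 ± 0.23) without overlap. IRF1 rose by 1.61 ± 0.23, IRF8 by 1.30 ± 0.17, IRF4 by 1.12 ± 0.16 and IRF2 by 0.75 ± 0.08. IRF3, the factor activated directly by the sensors, had a log2 fold change of 0.55, below the fold change threshold.

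Genes that present antigen to CD8+ T cells rose, and none of those that present it to CD4+ T cells was called. Of 22 class I pathway genes 18 were called higher and none lower, with a median of 0.91 (12 genes without the biopsies set apart). The called share with all biopsies was 81.8%, beside 18.5% over all genes tested. The peptide transporter subunits TAP1 and TAP2 rose by 2.20 ± 0.24 and 1.96 ± 0.16, the immunoproteasome subunits PSMB10, PSMB9 and PSMB8 by 1.91 ± 0.19, 1.79 ± 0.27 and 1.56 ± 0.24, and NLRC5, the transactivator of class I genes, by 1.94 ± 0.21. The class I heavy chains, whose genes are alike enough to share reads, rose less, from 0.73 for HLA-C to 1.40 for HLA-G, and HLA-C was no longer called without the biopsies set apart (0.71, adjusted p = 0.0965). The light chain B2M (0.34) and the chaperones CALR (0.02), CANX (0.01) and PDIA3 (-0.03) were not called. None of 11 tested class II genes was called in either direction by edgeR (median -0.05, 2 at an unadjusted p under 0.05, 1 called by DESeq2 and 1 by limma-voom), with CIITA, their transactivator, at -0.01 and HLA-DRA at -0.18. Of these, CTSS had an adjusted p of 0.0262 at a log2 fold change of 0.43, below the fold change threshold.

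Most called chemokine genes were higher. Of 23 tested chemokine genes 11 were called higher and 1 lower (52.2% called, beside 18.5% over all genes tested). CXCL10, a ligand of CXCR3 on T and NK cells, went from 5.45 to 125 (median 39.1) CPM to 496 to 3558 (median 1589.7) CPM (5.19 ± 0.46), and the lowest wIFN-α animal lay above the highest placebo animal. CXCL11, a ligand of the same receptor, stood at 2.72 to 26.4 (median 15.1) CPM against 0.257 to 5.03 (median 1.296) CPM (3.34 ± 0.42), with overlapping groups. The third of these ligands, CXCL9, which responds chiefly to IFN-γ, was at 43.1 to 185 (median 91.1) CPM and 2.74 to 173 (median 38.03) CPM, overlapped widely and was not called (0.77 ± 0.47, edgeR adjusted p = 0.217). The monocyte chemokines CCL2, CCL7 and CCL8 rose by 2.35 ± 0.34, 2.44 ± 0.62 and 2.75 ± 0.54, and CCL22, a ligand of CCR4, by 2.25 ± 0.13 without overlap. CXCL5, which attracts neutrophils, was at 0.03099 to 1.77 (median 0.471) CPM against 1.42 to 11.4 (median 2.64) CPM (-2.65 ± 0.47), and 10 of the 11 wIFN-α animals lay below every placebo animal. Of the other neutrophil chemokines CXCL2 was called higher (0.70 ± 0.25), a call lost without the biopsies set apart (0.76, edgeR adjusted p = 0.101) and with the block (0.98, adjusted p = 0.181), and CXCL1 (0.64) and CXCL3 (0.61) were not called.

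Cytokine genes showed the same mixture, 14 of 29 tested higher and 3 lower (58.6% called, beside 18.5% over all genes tested). IL1RN, the antagonist of the IL-1 receptor, rose from 3.73 to 56.4 (median 15.4) CPM to 23.8 to 293 (median 93.1) CPM (2.16 ± 0.46, edgeR adjusted p = 0.000674). Its groups overlapped, and M1007 was the highest wIFN-α animal, well apart from the next at 121 CPM. IL18BP, which neutralizes IL-18, rose by 1.92 ± 0.19 without overlap, while IL18 fell by 0.90 ± 0.19. TNFRSF1B, a TNF receptor, rose by 2.12 ± 0.21, TNFSF10, which encodes the death ligand TRAIL, by 1.96 ± 0.13, and TNF by 1.71 ± 0.35 from a low level of 0.343 to 2.63 (median 0.868) CPM. IL10 (0.07) and IL1B (0.33) were not called. IL33 and LTB also fell (-1.10 and -0.99), both calls being lost without the biopsies set apart (-1.06 and -0.64) and that of IL33 with the block (-0.99, edgeR adjusted p = 0.0698).

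Genes of NF-κB signaling and of the immediate early response, both switched on within hours of many stimuli, were raised in part. Of 20 tested NF-κB target and feedback genes 12 rose and 1 fell (65% called, beside 18.5% over all genes tested). SOD2, the mitochondrial superoxide dismutase, went from 186 to 852 (median 408) CPM to 1842 to 5891 (median 3499) CPM (2.93 ± 0.24) and TNFAIP3, which encodes the inhibitor A20, from 6.03 to 14.9 (median 9.98) CPM to 18.6 to 101 (median 34.9) CPM (2.12 ± 0.24). CEBPD, a transcription factor of the acute phase, rose by 1.92 ± 0.24 and the NF-κB subunit RELB by 2.08 ± 0.20, and none of these 4 genes overlapped between groups. Of 34 immediate early genes 19 rose (55.9%), and 10 did so with the animal as a replicate block. ZFP36, which speeds the decay of cytokine mRNAs, led them with 38.1 to 70.5 (median 47.1) CPM in placebo and 170.5 to 433 (median 225) CPM in wIFN-α animals (2.37 ± 0.15, no overlap), followed by the stress factor ATF3 (2.23 ± 0.33), and KLF6, a zinc finger factor, rose by 1.5 ± 0.12 without overlap. FOS (0.31), EGR1 (0.91) and NR4A1 (-0.25), classical members of this group, were not called.

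Genes of cell death and of immune inhibition rose together with these. Of 30 tested cell death genes 20 were called higher and 1 lower, with a median of 1.02. The called share was 70%, beside 18.5% over all genes tested. MLKL, the executor of necroptosis, rose from 5.69 to 20.5 (median 10.8) CPM to 89.3 to 162 (median 126) CPM (3.57 ± 0.20), the kinase RIPK2 by 2.34 ± 0.19, CASP1 by 2.13 ± 0.20 and the death receptor FAS by 1.63 ± 0.11, all without overlap. The proapoptotic BCL2L11, which encodes BIM, fell by 0.85 ± 0.19. CASP8 (0.13) and CASP9 (-0.06) were not called. Among 14 tested checkpoint genes 8 rose (57.1%). IDO1, which degrades tryptophan, stood at 12.4 to 89.98 (median 26.4) CPM against 0.558 to 7.298 (median 2.21) CPM (3.73 ± 0.41), the ligand LGALS9 at 77.5 to 151 (median 106) CPM against 12.2 to 29.6 (median 15.7) CPM (2.63 ± 0.15) and CD274, which encodes PD-L1, at 7.496 to 15.9 (median 11) CPM against 1.07 to 3.57 (median 2.74) CPM (2.08 ± 0.16), all without overlap. The receptor side differed from gene to gene. LAG3 rose by 1.27 ± 0.25, which the replicate block did not uphold (1.28, edgeR adjusted p = 0.069), whereas PDCD1, which encodes PD-1, was at 1.74 to 9.903 (median 4.302) CPM and 1.501 to 18.5 (median 4.23) CPM and was not called (-0.29 ± 0.35).

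Few genes of hepatocyte function were called. None of 18 secreted liver protein genes passed in edgeR (median 0.05, 1 at an unadjusted p under 0.05, 0 called by DESeq2 and 0 by limma-voom), with ALB at 0.05 ± 0.18 and APOA1 at 0.07 ± 0.15, and HPX at 0.52 with an adjusted p of 0.000979 below the fold change threshold. Likewise edgeR made no call among 37 respiratory chain genes (median 0.07, 2 at an unadjusted p under 0.05, 0 called by DESeq2 and 0 by limma-voom) and 57 ribosomal protein genes (median -0.03, 6 at an unadjusted p under 0.05, 0 called by DESeq2 and 0 by limma-voom). Of 21 acute phase genes 3 rose, HAMP, CP and CRP (14.3% called, beside 18.5% over all genes tested). HAMP, which encodes the iron hormone hepcidin, was at 116 to 459.8 (median 205) CPM against 17.5 to 198 (median 96.3) CPM (1.40 ± 0.33), a call that was lost as a change from week -3 with the replicate block (0.43, edgeR adjusted p = 0.859). The copper carrier CP rose by 0.62 ± 0.17 (0.69 with the block, adjusted p = 0.0927) and CRP, the C-reactive protein gene, by 0.59 ± 0.16, and CRP was no longer called without the biopsies set apart (0.48, adjusted p = 0.104) or with the block (0.58, adjusted p = 0.489). The acute phase genes SAA1 (0.64 ± 0.30), HP (0.33 ± 0.15) and FGB (0.21 ± 0.16) were not called.

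Several nuclear receptors of the liver fell. RXRA, the common partner of many such receptors, was at 60.6 to 121 (median 86.96) CPM in wIFN-α animals and 147 to 218 (median 171) CPM in placebo animals, a fall of 1.03 ± 0.12 on the log2 scale (edgeR adjusted p = 1.59e-07). Every wIFN-α animal lay below every placebo animal. A biopsy was assigned to the sequencing lane of its deepest run, though its counts were summed over all its runs. Of the week 0 biopsies 5 had more than 1 run. Within the 5 lanes assigned biopsies of both groups, the difference ran from -1.40 to -0.77. These lanes were assigned 1 to 4 wIFN-α and 1 to 3 placebo animals each. NR1I3, which encodes the xenobiotic receptor CAR, was at 7.62 to 39.9 (median 14.8) CPM against 14.5 to 83.2 (median 37.8) CPM (-1.26 ± 0.28). PPARA, the regulator of fatty acid oxidation, fell by 0.77 ± 0.16, although with the replicate block it was not called (-0.71, adjusted p = 0.0794). NR1H4, which encodes the bile acid receptor FXR, rose by 0.59 ± 0.14 (0.61 with the block, adjusted p = 0.413), and its target NR0B2 fell by 0.82 ± 0.24, a call lost without the biopsies set apart (-0.62, adjusted p = 0.107) and with the block (-1.07, adjusted p = 0.434). HNF4A (0.23 ± 0.14), a central factor of hepatocyte identity, was not called. Of all 22 liver transcription factors 2 were called higher and 5 lower, and 2 and 3 without the biopsies set apart. The called share with all biopsies was 31.8%, beside 18.5% over all genes tested.

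Of 23 fatty acid synthesis genes 5 (21.7%) were lower in wIFN-α animals and none was higher, around a median of -0.33 and beside 8.15% lower over all genes tested. The count was 3 without the biopsies set apart, 2 with the block and 8 without F1022. The desaturase FADS1 was at 8.72 to 29.2 (median 17.5) CPM in wIFN-α animals against 18.5 to 59.6 (median 39.9) CPM in placebo animals (-1.08 ± 0.20). Its mean in wIFN-α animals was 18.1 CPM, beside 19.5 CPM at week -3, and in placebo animals 38.3 CPM, beside 22.9 CPM. MLXIPL, the carbohydrate-sensing factor ChREBP, fell by 1.07 ± 0.17 (-0.95 with the block, adjusted p = 0.121) and the elongase ELOVL2 by 1.27 ± 0.29 (-1.20 with the block, adjusted p = 0.112). SREBF1, which encodes the lipogenic factor SREBP-1, ranged over 28.4 to 258 (median 62.7) CPM and 64.5 to 602 (median 195) CPM, and its call (-1.24 ± 0.43) was lost both with the block (-1.43, adjusted p = 0.192) and without the biopsies set apart (-1.55, adjusted p = 0.0555). FASN and ACACA, the enzymes that build the fatty acid chain, were at -0.45 and -0.84 and were not called. Of 27 fatty acid oxidation genes 1 rose, the lipase inhibitor ANGPTL4 (1.10 ± 0.16), and 3 fell. The called share was 14.8%, beside 18.5% over all genes tested. CYP7A1, which starts bile acid synthesis, was at 3.04 to 6.28 (median 4.46) CPM and 2.84 to 53.4 (median 5.32) CPM. It was called lower (-1.68 ± 0.47), but not with the block (-1.37, adjusted p = 0.086). Its difference was positive within 2 of the 5 lanes assigned biopsies of both groups. It was 0.06 in lane 3 and 0.22 in lane 6, each assigned only 1 placebo animal.

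**Figure D4:**
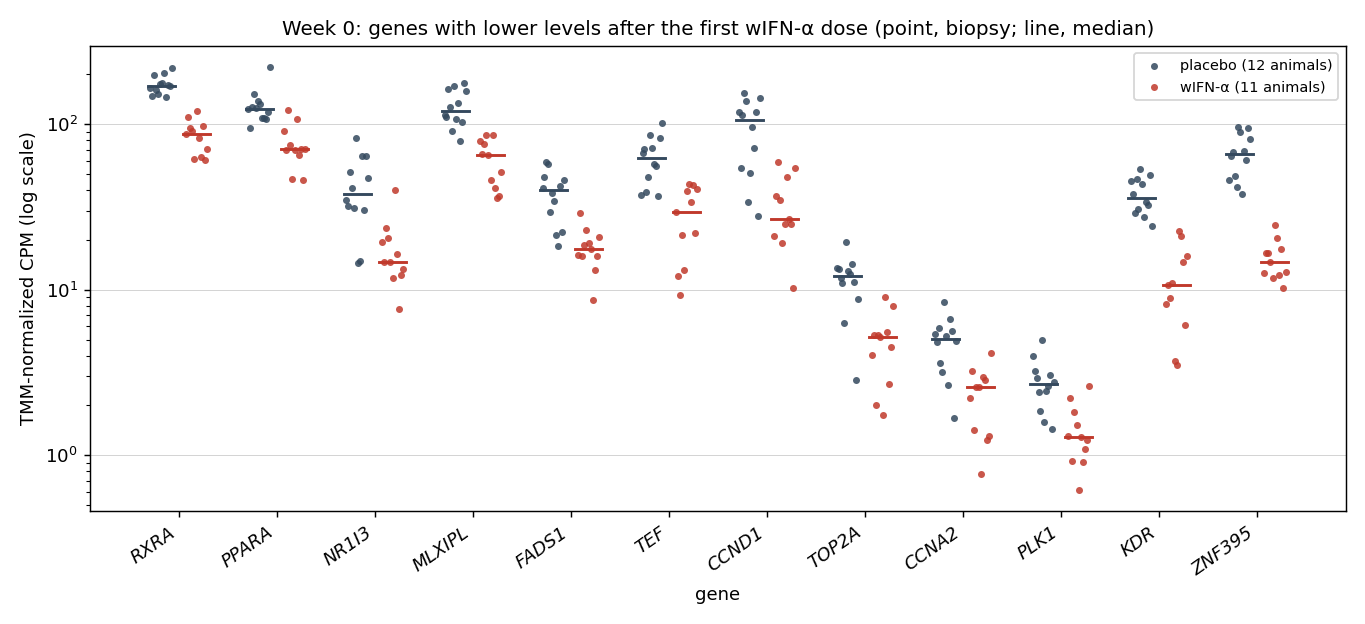
Level of each gene (TMM-normalized CPM, log scale) in each week 0 biopsy, with placebo animals (12) and wIFN-α animals (11) side by side and a line at each group's median. The points of RXRA, KDR and ZNF395 do not overlap between the groups, and those of the other 9 genes do.

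Calls in other metabolic and stress lists went in both directions. Of cholesterol genes 1 of 29 rose and 2 fell, of bile acid genes 1 of 24 rose and 3 fell, of glucose genes 3 of 27 rose and 2 fell (0 and 4 without the biopsies set apart), and of urea cycle and amino acid genes 1 of 23 rose and 1 fell. Of 34 stress response genes 8 rose and 2 fell, of 22 glucocorticoid and clock genes 4 rose and 2 fell, of 23 growth factor and hepatokine genes 4 rose and 2 fell, and of 18 genes of the kynurenine and NAD pathways 3 rose. The called shares were 29.4% of the stress, 27.3% of the glucocorticoid and clock and 26.1% of the growth factor genes, beside 18.5% over all genes tested. They were 18.5% of the glucose, 16.7% of the bile acid and 16.7% of the kynurenine and NAD genes. Lower shares were those of the cholesterol (10.3%) and urea cycle (8.70%) genes. Among the glucose genes called higher, PFKFB3, a regulator of glycolysis, lay above every placebo animal in 2 wIFN-α animals, F1023 and M1006, whose biopsies held muscle genes, and the part of muscle RNA was not tested. IDI1, an enzyme of cholesterol synthesis, was at 27.8 to 659 (median 104) CPM against 9.53 to 95.3 (median 20.9) CPM and rose by 2.19 ± 0.50. CYP2R1, the vitamin D 25-hydroxylase, rose by 2.15 ± 0.20 without overlap, the only one called higher of 33 cytochrome P450 genes besides CYP2J2 (0.88), whose call was lost without the biopsies set apart (0.76). Of the same P450 genes 3 were called lower, and 4 without the biopsies set apart. The called share with all biopsies was 15.2%, beside 18.5% over all genes tested. NAMPT and NMNAT1, enzymes of NAD synthesis, rose by 1.31 ± 0.08 and 0.69 ± 0.09. GLUL, glutamine synthetase, rose by 1.01 ± 0.20 and HMOX1, heme oxygenase, by 1.67 ± 0.30. The circadian factors TEF and HLF fell by 1.17 ± 0.25 and 0.88 ± 0.22, while NFIL3, which binds the same sites, rose by 1.26 ± 0.21.

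The heat shock genes HSPA1A and HSPA1B, near-identical copies that share reads, were high in only some wIFN-α animals. HSPA1A was at 1239 CPM in F1022, 727 CPM in M1002, 665 CPM in F1020, 271 CPM in F1014 and 186 CPM in F1018, and at 9.63 to 50.8 CPM in the other 6 animals. Placebo animals ranged over 9.24 to 249 (median 27.4) CPM, so that the 6 lower wIFN-α animals lay within their range. The call (2.65 ± 0.76, edgeR adjusted p = 0.00847) was lost with the replicate block (1.89, adjusted p = 0.119). The cochaperone DNAJB1 rose by 1.62 ± 0.44.

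Genes of the cell cycle were lower in wIFN-α than in placebo animals. Of 22 mitosis genes 11 were called lower and none higher (median -0.75), and of 26 tested genes of DNA replication and the entry into S phase 14 were lower and none higher (median -0.60). The called shares were 50% and 53.8%, beside 8.15% lower over all genes tested. TOP2A, the topoisomerase of dividing cells, was at 1.76 to 9.03 (median 5.19) CPM against 2.84 to 19.5 (median 12.1) CPM, a log2 difference of -1.24 ± 0.27 (edgeR adjusted p = 0.000955). The mean of TOP2A in wIFN-α animals was 4.86 CPM, beside 5.29 CPM at week -3, whereas in placebo animals it was 11.5 CPM, beside 5.21 CPM. CCNA2, a cyclin of S phase, was at 0.767 to 4.14 (median 2.57) CPM against 1.69 to 8.41 (median 5.07) CPM (-1.07 ± 0.26), and the mitotic kinase PLK1 differed by -0.97 ± 0.23. The mean of CCNA2 in wIFN-α animals was 2.297 CPM, beside 2.24 CPM at week -3, and in placebo animals 4.83 CPM, beside 2.204 CPM. The groups overlapped for each of these genes. CCND1, the cyclin that begins the cycle, was at 10.3 to 59.2 (median 26.8) CPM against 27.8 to 154 (median 105) CPM (-1.51 ± 0.30) and was not called with the block (-1.10, adjusted p = 0.178). The polymerase subunit POLE differed by -0.89 ± 0.22 and the flap endonuclease FEN1 by -0.63 ± 0.12. Of the mitosis list 6 genes and of the replication list 10 genes were still called lower without the biopsies set apart, and 5 of each with the block, while leaving out the placebo animal F1024 alone left 6 mitosis genes. Within the 5 lanes assigned biopsies of both groups the median of the mitosis list ran from -1.03 to 0.20. It was positive in lane 7, to which 1 wIFN-α and 2 placebo animals were assigned by their deepest run.

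Called shares differed between the lists of cell type markers, at 45.5% of the dendritic cell and 33.3% of the NK and cytotoxic markers, 11.8% of the Kupffer cell and monocyte markers and 7.14% of the T cell markers, beside 18.5% over all genes tested. Of 14 tested T cell markers 1 was called, CD3E (0.91 ± 0.14, 0.87 with the block at adjusted p = 0.057), while CD3D (0.07), CD3G (0.19), CD8A (-0.22) and CD4 (-0.39) were not. Of 12 tested NK and cytotoxic markers 4 rose, among them the receptor KLRD1, at 19.3 to 33.6 (median 28.3) CPM against 9.82 to 16.5 (median 12.7) CPM without overlap (1.12 ± 0.10), and granzyme GZMA (1.81 ± 0.32). NKG7 (0.09) and PRF1 (0.77) were not called. No B cell or plasma cell marker of 11 was called by edgeR (median -0.08, 3 at an unadjusted p under 0.05, 0 called by DESeq2 and 0 by limma-voom). Of 11 dendritic cell markers 5 rose, led by CLEC4C, a receptor of plasmacytoid dendritic cells, at 1.605 to 4.197 (median 2.98) CPM against 0.252 to 0.877 (median 0.476) CPM (2.50 ± 0.22), whereas LILRA4, another gene of these cells, was at -0.14 and not called. Of 17 Kupffer cell and monocyte markers 1 rose and 1 fell, the integrin ITGAM (-1.05 ± 0.23), and of 12 neutrophil markers 1 rose and 1 fell, the gelatinase MMP9 (-1.16 ± 0.32). Of 13 stellate cell genes 1 rose and 2 fell, of 9 cholangiocyte genes 1 rose, and of 7 adipocyte genes 1 fell. Of 6 platelet genes PPBP and PF4 rose by 1.98 ± 0.19 and 0.93 ± 0.22. Of 13 endothelial genes 1 rose and 2 fell, and KDR, the receptor of vascular endothelial growth factor, was at 3.51 to 22.6 (median 10.6) CPM against 24.4 to 53.5 (median 35.8) CPM (-1.72 ± 0.27), without overlap. The sum of the 8 erythrocyte genes was 47.3 to 1719.6 CPM in wIFN-α and 45.4 to 455 CPM in placebo animals, and the part of residual blood in these differences was not tested. None of the 22 tested muscle genes was called by edgeR, DESeq2 or limma-voom or at an unadjusted p under 0.05, around a median of 1.23.

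The largest falls by fold change were mostly those of skin genes. Of the 15 lowest genes 12 were no longer called lower without the 3 placebo biopsies with skin genes, among them the keratins KRT1, KRT10, KRT14 and KRT15. KRT1, the keratin of the upper epidermis, was 0.201 to 1.78 CPM in wIFN-α animals and 0.292 to 2442 (median 0.603) CPM in placebo animals, and its log2 fold change of -8.91 became 0.08 without the 3 biopsies. The 3 that kept their call were RAPGEFL1 (-3.29 ± 0.66, -1.61 without the biopsies set apart, -1.82 with the block at adjusted p = 0.0951), CUX2 (-2.71 ± 0.63) and CXCL5. The mean of CUX2 was 2.17 CPM in wIFN-α animals, beside 2.14 CPM at week -3, and 14.2 CPM in placebo animals, beside 2.51 CPM. Further genes that fell by more than 2 and kept their call without the biopsies set apart were chosen after their values were seen. ZNF395 was at 10.2 to 24.5 CPM (median 14.6) in wIFN-α animals and 38.0 to 95.8 CPM (median 66.5) in placebo animals (-2.10 ± 0.18, edgeR adjusted p = 1.18e-09), and EPOR, the erythropoietin receptor, at 0.0989 to 0.601 CPM (median 0.281) against 1.03 to 3.65 CPM (median 1.595), a fall of 2.39 ± 0.28. TRIL, which assists toll-like receptors, and PDXP, a phosphatase, fell by 2.14 ± 0.23 and 2.09 ± 0.28. None of these 4 genes overlapped between the groups, and TNFSF4, which encodes OX40 ligand, fell by 2.22 ± 0.39 with 9 of 11 wIFN-α animals below every placebo animal.

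Of the 23 genes that the study's own tables name, 9 were called higher at week 0 and none lower. That list was chosen on biopsies of this series and is no independent evidence of a direction. Besides USP18, IDO1, CD274, TNFSF10, FAS, SOCS1 and SOCS3 these were FASLG, the Fas ligand (1.20 ± 0.19), and TBX21, which encodes T-bet (0.72 ± 0.23, 0.45 with the block at adjusted p = 0.325). PLA2G2A (0.72 ± 0.47), FOXP3 (-0.14 ± 0.23) and TGFB1 (-0.37 ± 0.21) were not called.

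No gene differed detectably between the groups before dosing, and no gene passed the test for a difference between the sexes. At week -3, in 11 wIFN-α and 12 placebo animals, edgeR called 0 of 14963 genes (0%), with 130 at an unadjusted p under 0.05. ISG15 then averaged 11.5 CPM in the wIFN-α group and 21.1 CPM in the placebo group, and IFIT3 12.4 and 12.02 CPM. At week 0 the interaction of sex and treatment passed an adjusted p of 0.05 for 0 of 15341 genes (0%) by edgeR, with 381 at an unadjusted p under 0.05, and for 0 genes by DESeq2 and by limma-voom. Without M1002 1 gene passed. Males alone gave 1798 calls (12%) and females alone 2080 (14.3%). The log2 fold changes of IFIT3 were 6.67 in males and 6.43 in females and those of CXCL10 4.66 and 5.42. Within the 5 sequencing lanes assigned animals of both groups by their deepest run, the median of the antiviral effector list was between 2.34 and 3.09.

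Few genes had an effect of the first dose that passed the test for a difference from a later biopsy. At week 3, after repeated 20 µg doses, 1618 genes (10.8%) were called in 9 wIFN-α and 12 placebo animals, and at week 7, after the first 100 µg dose, 3205 (21.6%). These weeks share animals with week 0, though not biopsies. The difference between the effects was itself tested, in a fit over both weeks. It passed an adjusted p of 0.05 for 59 of 15406 genes (0.383%) against week 3, and for 86 of 15411 genes (0.558%) against week 7. Against week 3 the number was 0 without the biopsies set apart, 102 with the animal as a replicate block, and 32, 34 and 36 without F1021, F1013 or F1023 alone. Against week 7 it was 126 without the biopsies set apart, 505 with the block and 51 without F1013. With all biopsies 27 of the differences from week 7 were positive and 59 negative. The balance was reversed without the biopsies set apart, at 89 positive and 37 negative. With the block 187 were positive and 318 negative. Several ISGs had a smaller effect at week 0 than at week 7. ZBP1 had log2 fold changes of 3.39 at week 0 and 5.38 at week 7, a difference of -1.97 ± 0.33 (edgeR adjusted p = 0.00147), OAS1 had 3.60 and 5.10 (-1.48 ± 0.33, adjusted p = 0.0248), and RASGRP3, an activator of Ras in lymphocytes, 1.07 (0.98 with the block at adjusted p = 0.132) and 2.66 (-1.57 ± 0.28, adjusted p = 0.00274). RSAD2 and HERC5, named after their values were seen, also had smaller effects at week 0, by -1.32 and -1.27. ISG15 (-0.58 ± 0.54) and CXCL10 (-0.96 ± 0.54) did not pass, with adjusted p of 0.707 and 0.483.

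Some early genes had a larger effect at week 0 than at week 3. Positive differences passed for 9 genes, for 35 with the block, and for 3, 2 and 0 without F1021, F1023 or F1013. With limma-voom, and without the biopsies set apart, the number was 0. TNFAIP3 had 2.12 and 0.71, a difference of 1.41 ± 0.34 (edgeR adjusted p = 0.0479), and the metalloprotease ADAMTS17 had 2.73 and 0.74 (2.0 ± 0.49, adjusted p = 0.0485). Without the biopsies set apart these differences were 1.29 and 1.94, with adjusted p of 0.398 and 0.355. IL1RN and CEBPD, named after their values were seen, had week 0 effects of 2.16 and 1.92 against 0.15 and 0.66 at week 3, but the differences did not pass the test (adjusted p = 0.173 and 0.104). The cell cycle gene TOP2A, -1.24 at week 0, was at 0.38 at week 3 and 0.02 at week 7, with differences of -1.61 (adjusted p = 0.0485) and -1.25 (adjusted p = 0.197). Of the mitosis list no gene was called lower at either later week. Called higher were 3 at week 3 and 1 at week 7, with list medians of 0.52 and 0.27.

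**Figure D5:**
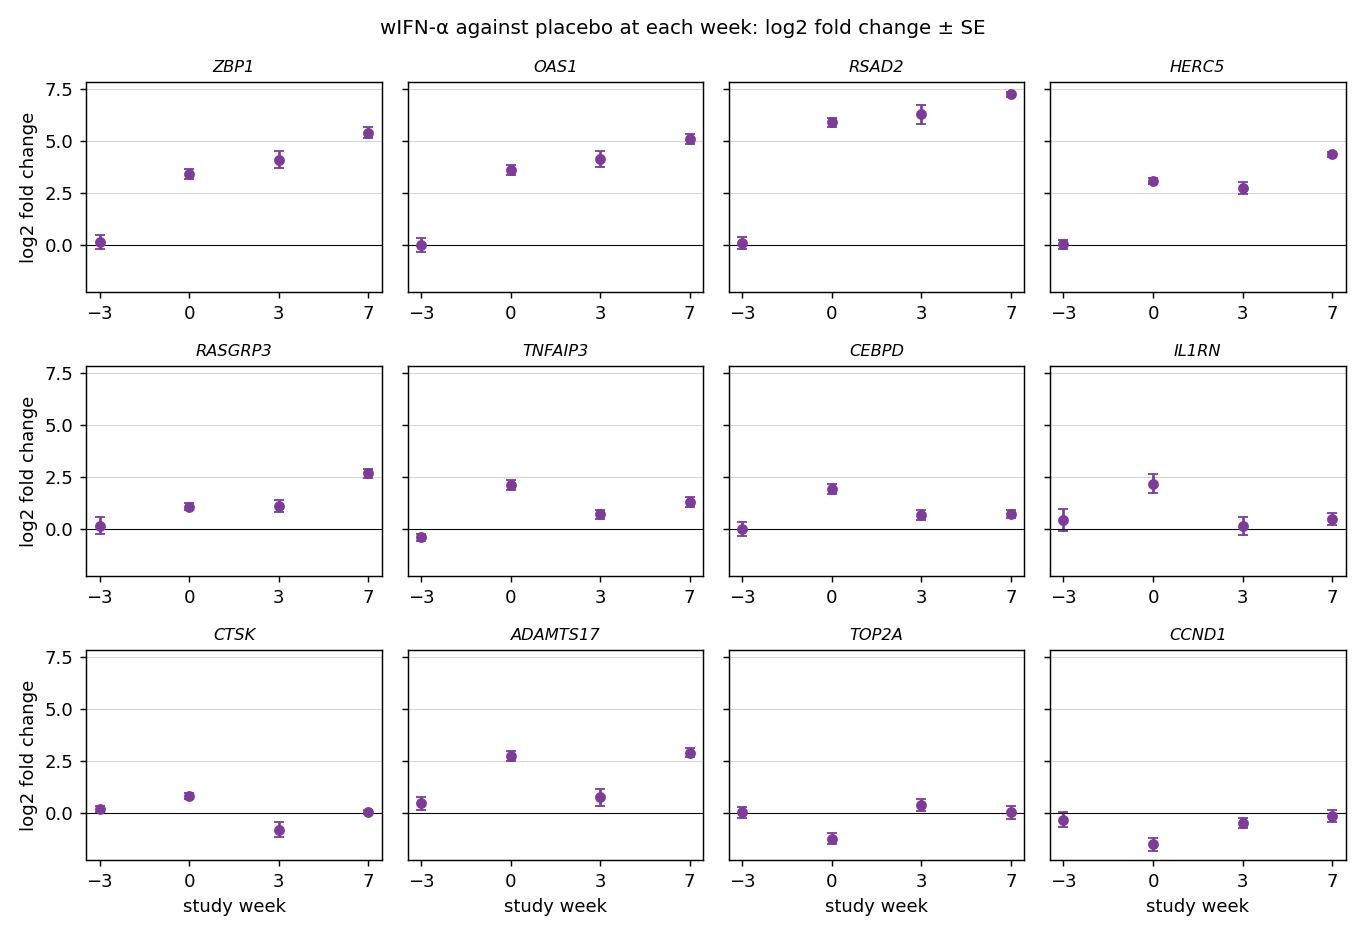
Log2 fold change of wIFN-α against placebo animals (points, bars ± SE) at study weeks -3, 0, 3 and 7 for 12 genes. At week -3 all lie between -0.42 and 0.45, ZBP1, OAS1, RSAD2, HERC5 and RASGRP3 are highest at week 7, TNFAIP3, CEBPD and IL1RN are highest at week 0, and TOP2A and CCND1 are lowest at week 0.

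The RNA of the virus itself did not differ detectably 6 hours after the dose. Reads on the WHV entry amounted to 1.68 to 4.28% (median 2.31%) of the reads on genes in wIFN-α animals and 0.956 to 3.40% (median 2.49%) in placebo animals, and the ranges overlapped, with M1012 and F1018 above every placebo animal and F1016 and F1017 below every wIFN-α animal. The mean log2 level was higher by 0.14 in wIFN-α animals, 1.11-fold, with a two-sided permutation p of 0.492 (100000 resamples, 11 against 12 animals). With medians in place of means the difference was -0.11 (permutation p = 0.528), and without the biopsies set apart it was 0.28 (permutation p = 0.348, 7 against 7 animals). Of 19 tested host genes with known parts in the hepadnavirus life cycle, such as receptors, nuclear receptors and DNA repair enzymes, 2 were called higher and 5 lower. The called share was 36.8%, beside 18.5% over all genes tested. The largest falls were those of TOP2A and RXRA. SLC10A1, the bile acid transporter that serves as the entry receptor of the human virus, was at 141 to 921 (median 387) CPM against 382 to 868 (median 601) CPM and was not called (-0.53 ± 0.23, edgeR adjusted p = 0.0751).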

How the data were processed

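The study took liver biopsies from chronic WHV carrier woodchucks and sequenced poly(A)-selected RNA as paired-end 50-nucleotide reads. The authors mapped the reads with Bowtie2 to a woodchuck transcriptome assembly named by human gene symbols and counted them with SAMtools, and the submitters' processing notes also name CASAVA, FastQC and DESeq, without versions. The deposited file of each run holds an estimated count per gene and an RPKM value made by the authors, of which only the counts were used. Gene names are those of the files, and reads shared by paralogs could not be separated. Some genes are not reported here.

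Counts were summed over the runs of an animal and rounded, and reads on the virus did not enter library sizes. Genes were filtered with filterByExpr, scaled by TMM and tested in edgeR 4.0.16 (R 4.3.3), with DESeq2 1.42.0 and limma-voom 3.58.1 as alternatives to edgeR. The study used DESeq without covariates. An SE is that of edgeR's log2 fold change, taken from its F statistic. The test scripts were tested on simulated data. WHV RNA was compared by a permutation test in Python 3.11.15 with scipy 1.17.1.

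The week 0 biopsies, the 52 gene lists and the lists of genes to name were chosen with earlier results of these data known. Named were the 15 highest and 15 lowest log2 fold changes among called genes averaging 1 CPM or more, up to 6 called members of a list, members of a list without a call, the genes of the study's tables, the 5 largest differences each way between weeks, and genes with at most 3 counts in every placebo biopsy. APOBEC3F, SAMHD1, OAS2, OAS3, ZC3HAV1, TRIM25, MB21D1, TICAM1, MYD88, TMEM173, HLA-C and HLA-G were named after their values were seen.

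An animal has the same name at every week, so its biopsies at weeks -3 and 0 are paired. Over 14579 genes the deviations from the group means of an animal's 2 biopsies had a median correlation of 0.394 (23 pairs, -0.451 to 0.737, 16 of them over 0.1), and those of different animals one of 0.033. The change from week -3 with the animal as a replicate block was therefore fitted as an alternative. At week -3 the biopsies of F1016 and F1018 held mostly muscle RNA, and the block was also fitted without them. Depth was 12962032 to 62397372 reads on genes per biopsy, so that genes of low level rest on few reads.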

Additional observations from a re-analysis of the deposited data

Results flagged for a closer look

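The test of a difference between the effects of wIFN-α at 2 weeks gave 59 genes for week 0 minus week 3 and 86 genes for week 0 minus week 7. Against week 3 the named positive differences, on the log2 scale, were ADAMTS17 with 2.0, CTSK, a protease of bone, with 1.61, TNFAIP3 with 1.41, TMEM141 with 0.50 and HNRNPCL1 with 0.40. The negative ones were KRT1 with -13.58, DSG1 with -9.28, SPINK5 with -9.14, FLG2 with -8.76 and ASPRV1 with -8.15, genes of the epidermis, and the summed skin genes exceeded 1000 CPM in 3 placebo biopsies of week 0. Without the biopsies set apart 0 genes passed by edgeR.

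Against week 7 the positive differences were LOC283104 with 2.34, LOC100506385 with 2.11, LOC338862 with 1.28, DNAJB7 with 1.17 and LOC100505636 with 1.13. The negative ones were LGALS13 with -2.48, ZBP1 with -1.97, RASGRP3 with -1.57, PKIB with -1.57 and OAS1 with -1.48.

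The wIFN-α animal M1004 was in no comparison. Its week 0 biopsy, in reads scaled to 1000000 reads on genes, held IFIT3 at 1345 against 5.54 to 33.0 in the placebo animals, OASL at 781 against 2.38 to 42.1, and ISG15 at 947 against 5.35 to 130.4. CXCL10 was at 4766 against 5.25 to 135 and USP18 at 244 against 3.52 to 47.4. All 5 values lay above the placebo range.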

How the results depend on the processing

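For the 223 called genes that fall under the naming rule, 3121 values under the alternatives included 2838 that were still called in the same direction, 260 of the same direction without a call and 23 of the opposite direction, and among 5128 values with 1 animal left out 131 were without a call and 0 had the opposite direction. Leaving out 1 animal gave 2582 to 2850 called genes at week 0 (1458 to 1580 higher and 1124 to 1306 lower), 0 to 1 for the interaction with sex, 0.03 to 0.20 for the log2 difference of WHV RNA, 29 to 30 antiviral effectors, 15 to 18 class I genes, 6 to 15 mitosis genes, 10 to 15 replication genes, 4 to 8 fatty acid synthesis genes, 18 to 20 immediate early genes and 6 to 8 skin genes. At a fold change above 2 there were 1269 calls (826 higher and 443 lower), with 9 class I, 3 mitosis, 4 replication and 12 immediate early genes. With the animal as a replicate block there were 741 lower calls, 5 mitosis, 5 replication, 2 fatty acid synthesis, 10 immediate early and 0 skin genes, and without F1018 and F1016 in that fit 5, 8 and 0 mitosis, replication and skin genes. The block removed no call of a gene described in the report other than those given there, HSPA1B and the skin genes. With lane as a covariate 5 mitosis and 2 skin genes were called, with limma-voom 0 and without a filter 14 skin genes, and with M1004 included 3 fatty acid synthesis genes.

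Alternatives chosen after the data were seen left 6 mitosis genes without F1023 and F1013, 6 mitosis, 3 fatty acid synthesis and 0 skin genes without the biopsies set apart, 7 mitosis and 0 skin genes without those with skin genes, and 3 fatty acid synthesis genes without those with muscle genes. The difference from week 3 gave 102 genes with the replicate block, 14 with limma-voom, 238 without a filter, 32 without F1021, 34 without F1013, 36 without F1023, 0 without the biopsies set apart or with muscle genes and 1 without those with skin genes. The difference from week 7 gave 505 with the block and 51 without F1013. The WHV RNA difference was -0.11 with medians. The causes were not tested.

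Skin genes changed sign. With the block the log2 fold change was 0.071 for CDSN, 0.74 for DSG1 and 0.018 for FLG2, and without F1018 and F1016 in that fit it was 0.081 for CDSN and 0.34 for DSG1. Without the biopsies set apart it was 0.13 for CDSN, 0.11 for DSG1, 0.23 for FLG2, 0.065 for KRT1, 0.095 for KRT14, 0.54 for KRT15, 0.17 for KRT33B, 0.34 for LAD1 and 0.57 for PKP3. Without those with skin genes it was 0.21 for CDSN, 0.55 for FLG2, 0.085 for KRT1, 0.041 for KRT14, 0.41 for KRT15, 0.064 for KRT33B, 0.39 for LAD1, 0.54 for PKP3 and 0.23 for SFN.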
